A study of Homo sapiens with 18 samples.

Results

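MYC binding was examined at 10 genes of nucleolar ribosome biogenesis: NPM1, NCL, FBL, NOP56, NOP58, NOLC1, GNL3, BOP1, NOP16 and PES1. A gene was counted as bound in a library when a listed MYC peak overlapped the 2 kb on either side of its start site (hg19), and all 10 genes had such peaks. These peaks fell in 10 of the 43222 regions obtained by merging the peak lists of all libraries, taking the strongest region of each window. The genes were chosen by function, with earlier results of these data known.

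The nucleolus is the nuclear compartment in which ribosomal RNA is transcribed, chemically modified, cut and assembled with proteins into ribosomal subunits. MYC is a transcription factor that binds DNA with its partner MAX, preferring the E-box CACGTG, and genes of ribosome production are among its best known targets. FBL, NOP56 and NOP58 are the core proteins of the box C/D particles that methylate ribosomal RNA, and NOLC1 is a chaperone of such particles. NPM1 and NCL are abundant nucleolar proteins with chaperone and RNA-binding roles, and BOP1, PES1, NOP16 and GNL3 act on the large ribosomal subunit.

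The cells were MCF10A, an immortalised breast epithelial line. All of them carried ectopic MYC (pBABE-hygro-MYC) and the mutant kinase PI3KH1047R, controls included. The control group carried a doxycycline-inducible scramble hairpin (shSCR), and the other groups carried hairpin 1 or hairpin 4 against G9a (shG9a_1 and shG9a_4), a histone methyltransferase. The hairpins were induced with doxycycline at 2 µg/mL for 72 h in every group. Each group had 3 biological replicates immunoprecipitated with the MYC antibody N262, with 1 peak list per library. The comparison asks whether MYC binding at these genes differs when G9a is targeted. Neither the level of G9a nor any transcript was measured in the files used here, so the knockdown and the epithelial identity of the cells could not be checked, and the results hold for this single line with added MYC.

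The 8 libraries other than shG9a_1 replicate 1 listed 11168 to 34738 peaks on chromosomes 1 to 22 and X, and the shortest shSCR list held 20118. The list of shG9a_1 replicate 1 held 113 peaks of 79 bp in median width, and results are given with and without it. Sequencing depth was recovered from the peak values relative to the shSCR mean. It was 0.926 to 1.04 in shSCR. In shG9a_1 it was 0.840 for replicate 2 and 1.09 for replicate 3, and the shG9a_4 libraries had 1.90, 1.05 and 2.65 for replicates 1, 2 and 3. In shG9a_1 replicate 1 it was 2.36 with its shortest peak of 51 bp, and 0.767 to 0.926 with the peak lengths of the other libraries.

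Promoter sequences were matched by symbol in a RefSeq table (GRCh38.p14) for 7 of the 10 genes. NOP58, NOLC1 and BOP1 had no entry. Each sequence runs from 250 bases before a RefSeq start to 50 bases from it. The E-box CACGTG, which reads the same on both strands, was found in 3 of the 9 promoters listed for the 7 genes (1 each of FBL, GNL3 and PES1), and 7.26% of all 35116 promoters in the table held it. The variant CACGCG, searched on both strands (CGCGTG), was found in 2 of the 9 (1 each of NPM1 and FBL), and 11.4% of all promoters held it. The occurrences of these motifs in the NPM1 sequence include a pair that overlap. The promoters of 4 genes are shown because they hold either motif, with the motif letters in capitals. FBL (GRCh38.p14, chr19:39846330-39846629, minus strand), PES1 (chr22:30591861-30592160, minus strand), GNL3 (chr3:52685782-52686081, plus strand, the second of its RefSeq starts) and NPM1 (chr5:171387599-171387898, plus strand) read, 5′ to 3′:
FBL: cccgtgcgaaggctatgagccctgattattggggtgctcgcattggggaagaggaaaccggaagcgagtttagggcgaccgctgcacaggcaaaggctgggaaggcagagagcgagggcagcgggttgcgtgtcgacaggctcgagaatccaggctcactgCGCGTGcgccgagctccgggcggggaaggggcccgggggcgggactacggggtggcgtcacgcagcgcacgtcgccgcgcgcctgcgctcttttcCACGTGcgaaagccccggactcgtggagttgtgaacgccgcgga
PES1: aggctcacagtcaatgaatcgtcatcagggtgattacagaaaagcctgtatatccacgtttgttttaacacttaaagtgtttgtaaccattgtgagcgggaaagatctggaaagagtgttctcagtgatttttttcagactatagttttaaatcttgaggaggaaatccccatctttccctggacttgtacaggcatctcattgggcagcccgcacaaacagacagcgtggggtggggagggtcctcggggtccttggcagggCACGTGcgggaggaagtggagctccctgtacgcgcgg
GNL3: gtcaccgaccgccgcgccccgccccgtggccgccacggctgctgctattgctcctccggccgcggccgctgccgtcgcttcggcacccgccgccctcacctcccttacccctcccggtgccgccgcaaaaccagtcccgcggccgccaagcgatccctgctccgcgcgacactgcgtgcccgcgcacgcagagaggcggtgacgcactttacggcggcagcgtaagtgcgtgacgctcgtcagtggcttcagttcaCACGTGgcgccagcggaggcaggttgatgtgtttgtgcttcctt
NPM1: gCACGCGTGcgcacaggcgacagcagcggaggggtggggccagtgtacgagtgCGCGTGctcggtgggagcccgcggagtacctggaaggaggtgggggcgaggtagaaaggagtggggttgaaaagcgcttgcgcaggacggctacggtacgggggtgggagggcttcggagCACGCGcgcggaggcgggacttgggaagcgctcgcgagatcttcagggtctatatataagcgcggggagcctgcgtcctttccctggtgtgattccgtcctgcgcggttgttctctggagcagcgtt

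The E-box began 6 bases after the RefSeq start in FBL, 6 bases after it in GNL3 and 13 bases after it in PES1. In the NPM1 sequence CACGCG began at −249 and −77 and its reverse complement at −247 and −197. The promoters of NCL, NOP56 and NOP16 and the other listed starts of GNL3 and NPM1 held neither motif in these windows. The RefSeq starts belong to another genome build than the peaks and were not aligned with the start sites used below, so no distance between a motif and a peak is given.

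The MYC summit lay downstream of the start site used, in the direction of transcription, at all 10 genes (median over the 8 libraries other than shG9a_1 replicate 1). The most distant was that of NPM1, between 843 and 893 bp downstream in these libraries, with a median of 868.5 bp. NCL followed at 589 to 659 bp, NOLC1 at 571 to 628 bp, NOP16 at 351 to 403 bp and BOP1 at 252 to 322 bp. The start site used for BOP1 may be that of its neighbour HSF1, so its distance is uncertain. The summit of PES1 lay 102 to 179 bp, that of GNL3 89 to 139 bp and that of FBL 16 to 79 bp downstream. The position of the summit varied by 50 to 77 bp over the 8 libraries at these 8 genes. The NPM1 promoters in the RefSeq table begin at 171386866 and 171387599 (GRCh38.p14), so its distance depends on the start taken. Those of GNL3 begin at 52685670 and 52685782. With summits 89 to 139 bp downstream, even the side on which they lie may depend on the start taken for GNL3. The printed promoters were not aligned with the start sites used here. Whether a summit lies within a printed promoter was therefore not determined.

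NOP58 and NOP56 had summits that differed more between libraries. At NOP58 the summit lay 258 to 343 bp downstream in 7 libraries and 2 bp downstream in shSCR replicate 2. At NOP56, a gene whose region spanned 1658 bp, it lay 387 to 484 bp downstream in 6 libraries, 68 bp downstream in shSCR replicate 2 and at −621 bp, upstream of the start, in shG9a_4 replicate 2. That upstream site was also listed as a separate peak in shG9a_4 replicate 1, where its summit was at −631 bp. The upstream and downstream peaks held 33 and 30 fragments in shG9a_4 replicate 1 and 40 and 42 fragments in shG9a_4 replicate 2, so these libraries resolved a pair of summits on either side of the start. In the other 6 libraries a single peak of 1399 to 1636 bp covered both sites.

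**Figure D1:**
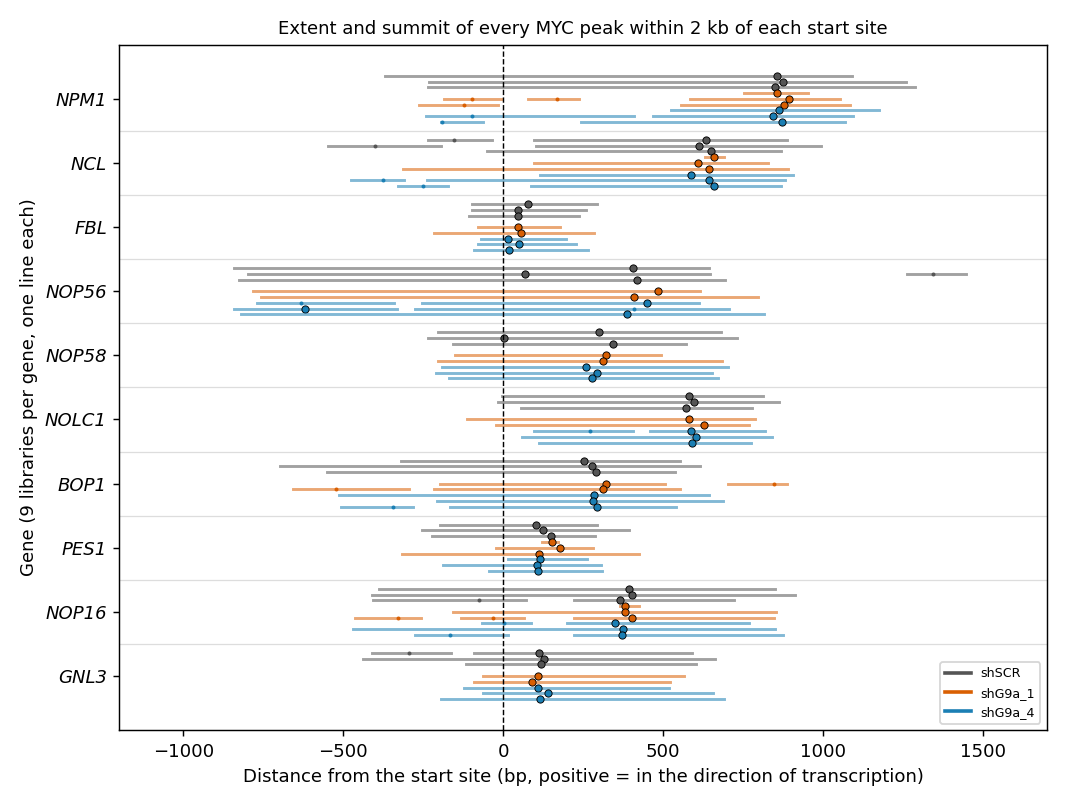
Every MYC peak within 2 kb of the start site of each gene: lines give the extent of a peak in 1 library, large points the summit of its best peak and small points the summits of further peaks, against distance from the start site in bp (positive in the direction of transcription). Colours give the hairpin, with replicates 1 to 3 from top to bottom; the best summits stack within 50 to 77 bp at 8 genes and are spread at NOP58 and NOP56.

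At NPM1 the 3 shSCR libraries each listed 1 wide peak of 1461 to 1526 bp that ran across the start site. In shG9a_1 replicates 2 and 3 and the 3 shG9a_4 libraries the best peak was 471 to 827 bp wide and did not reach the start site. In 4 of these 5 libraries a further, weaker peak was listed with its summit upstream of the start, at −97 to −192 bp, with folds of 3.26 to 9.85. NPM1 was the gene with the widest merged region, at chromosome 5, 170814338 to 170815998, or 1661 bp. Merged widths of the 10 regions were 513 (FBL) to 1661 bp with a median of 1256.5 bp, against 532 bp over the 14209 regions called in all 3 shSCR libraries. Median merged width rose over the deciles of peak strength, and in the strongest decile of those 14209 regions it was 861 bp.

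Several of the genes have another gene near the 5′ end of their RefSeq span, so a peak there may lie close to more than 1 gene. In the RefSeq table PBRM1 lies 6 bp from GNL3, HIGD2A 152 bp from NOP16, TCN2 160 bp from PES1 and HSF1 165 bp from BOP1. Each lies within 2 kb of the 5′ end of the whole span of the gene (GRCh38.p14). That end was not aligned with the start sites used here, so whether a neighbour lies in a window was not determined. ARL10 overlaps NOP16, and the small RNA genes SNORD110 and MIR1292 lie within NOP56. The long non-coding RNA gene LOC105372505 lies 167 bp from NOP56, and the microRNA gene MIR3912 lies 355 bp from NPM1. Distances at BOP1 are also uncertain, since the start site used for it may be that of HSF1.

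All 10 genes were called in all 3 shSCR libraries, where 32.9% of all merged regions were called in all 3. Each of the 10 regions lay in the strongest decile of the 14209 regions so called, ranked by mean percentile of the q-value within the shSCR lists. NPM1 ranked 7 among the 14209, NCL 30, BOP1 42, NOP16 87, GNL3 98, NOLC1 129, NOP58 388, NOP56 444, PES1 492 and FBL 1124. With the G9a hairpins, all 10 were called in at least 5 of 6 libraries. That share was 36.9% over all regions reproducible in shSCR and 99.2% over the strongest decile, so the calls at these genes do not set them apart from other strong regions. The single library that missed any of them was shG9a_1 replicate 1.

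The authors' fold enrichment and the rank by q-value describe each gene within its own list, and ranks from lists of unequal length show no change. NPM1, nucleophosmin, had folds of 62.4, 53.0 and 69.2 in shSCR replicates 1, 2 and 3, at ranks 6, 24 and 5. Its folds were 34.2 and 42.5 in shG9a_1 replicates 2 and 3 (ranks 9 and 10) and 35.0, 31.6 and 25.3 in shG9a_4 replicates 1, 2 and 3 (ranks 12, 61 and 23). It was thus among the 61 best peaks of each of these 8 lists.

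NCL, nucleolin, had folds of 30.6, 66.3 and 56.0 in shSCR (ranks 64, 26 and 24). Its folds were 32.4 and 32.1 in shG9a_1 replicates 2 and 3 (ranks 44 and 45) and 27.5, 44.3 and 37.3 in shG9a_4 (ranks 61, 44 and 25). The shSCR and shG9a folds of NCL overlapped, and NCL stayed within the best 64 peaks of all 8 lists.

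Among the box C/D proteins, FBL, the methyltransferase fibrillarin, had the lowest mean fold of the 10 in shSCR (17.9 ± 9.97, SD, n = 3). Its folds were 12.7, 29.4 and 11.6 in shSCR (ranks 1685, 548 and 1558), 9.55 and 16.0 in shG9a_1 replicates 2 and 3 (ranks 1999 and 852), and 9.59, 14.6 and 13.6 in shG9a_4 (ranks 1736, 1210 and 1068). NOP56, a scaffold of the particle, had folds of 27.0, 20.0 and 29.9 in shSCR (ranks 355, 1155 and 285), 14.3 and 20.2 in shG9a_1 (ranks 644 and 421) and 15.7, 22.8 and 20.2 in shG9a_4 (ranks 497, 396 and 413). NOP58, its paralogue in the particle, had folds of 19.9, 33.1 and 22.5 in shSCR (ranks 418, 417 and 502), 22.1 and 15.6 in shG9a_1 (ranks 141 and 417) and 26.8, 26.9 and 25.2 in shG9a_4 (ranks 81, 230 and 146). FBL was the least prominent of the 3 in every one of these 8 lists except shSCR replicate 2, where NOP56 ranked lower.

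NOLC1 had folds of 40.3, 25.7 and 35.3 in shSCR (ranks 81, 376 and 106), 24.8 and 19.5 in shG9a_1 (ranks 104 and 308) and 16.3, 32.5 and 28.0 in shG9a_4 (ranks 324, 129 and 78). In shG9a_4 replicate 1, where its fold was lowest, its signal was listed as 2 peaks, 589 and 272 bp downstream, with folds of 16.3 and 14.9.

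Of the large-subunit genes, BOP1 and PES1 are partners in the PeBoW complex. BOP1 had folds of 40.4, 52.1 and 44.5 in shSCR (ranks 71, 48 and 46), 32.2 and 37.1 in shG9a_1 (ranks 38 and 47) and 26.8, 33.2 and 31.3 in shG9a_4 (ranks 53, 70 and 57). Its ranks stayed between 38 and 71. PES1 was weaker, with folds of 17.4, 30.7 and 25.0 in shSCR (ranks 872, 429 and 481), 12.4 and 25.5 in shG9a_1 (ranks 863 and 198) and 8.88, 15.9 and 14.0 in shG9a_4 (ranks 2081, 936 and 628). The rank of 2081 in shG9a_4 replicate 1, or 18.6% of the list, was the lowest place of any of the 10 genes in the 8 lists.

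NOP16 had folds of 35.1, 47.3 and 27.1 in shSCR (ranks 48, 45 and 201), 18.4 and 35.9 in shG9a_1 (ranks 149 and 27) and 16.2, 37.3 and 30.5 in shG9a_4 (ranks 123, 45 and 30). GNL3, the GTP-binding protein nucleostemin, had folds of 34.3, 43.3 and 25.5 in shSCR (ranks 77, 63 and 202), 37.1 and 43.0 in shG9a_1 (ranks 21 and 28) and 33.6, 31.0 and 32.5 in shG9a_4 (ranks 24, 96 and 54). The shG9a folds of GNL3 all lay within the range of its shSCR folds.

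**Figure D2:**
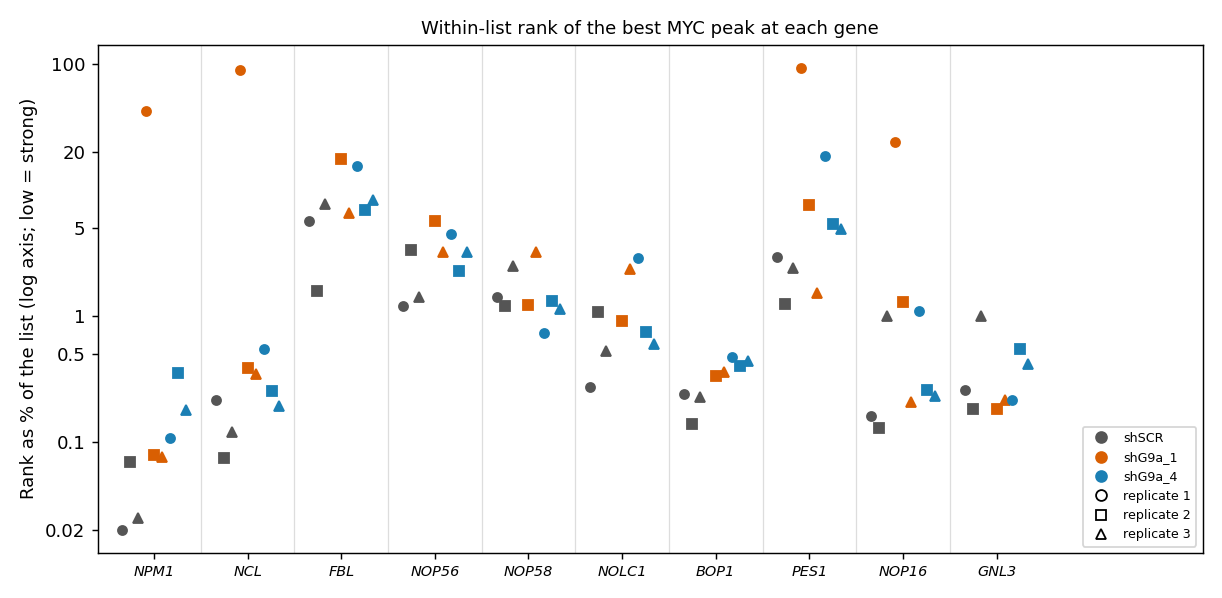
Rank by q-value of the best MYC peak of each gene as a percent of the length of its own list (log axis, low values are strong peaks), for every library that listed one. Colours give the hairpin and symbols the replicate; NPM1, NCL and BOP1 stay under 1% in 8 libraries, FBL and PES1 reach 17.4% and 18.6%, and the 4 points of shG9a_1 replicate 1 lie at 23.9% and above of its 113 peaks.

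In the 113-peak list of shG9a_1 replicate 1, 4 of the 10 genes were called: NOP16 at rank 27, NPM1 at 48, NCL at 101 and PES1 at 105. That library called 0.767% of the regions reproducible in shSCR and 7.32% of the strongest decile. The summits held few fragments, 18 at NOP16 (95% exact Poisson interval 10.7 to 28.4), 16 at NPM1 (9.14 to 26.0), 12 at NCL (6.2 to 21.0) and 6 at PES1 (2.2 to 13.1). These intervals cover counting error only. BOP1, ranked above NOP16 and PES1 in shSCR, was not called there, nor were GNL3, NOLC1, NOP58, NOP56 and FBL. Absence from a list means not detectable at the limit of the caller and does not show absence of MYC.

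To compare libraries, the whole number of fragments stacked at each summit (the pileup) was recovered from the authors' fold and p-value and divided by the lowest background of its library. This ratio is called height here. In shSCR, NPM1 had heights of 270.1, 277 and 289 in replicates 1, 2 and 3, from pileups of 121, 135 and 118 fragments, with a mean of 279 ± 9.72 (SD, n = 3). NCL followed with 211 ± 16.8 (SD, n = 3), and its highest library, at 230, lay below the lowest of NPM1. NOP16 had 198 ± 42.7, BOP1 186 ± 29.2 and GNL3 184 ± 30.7 (SD, n = 3 each). The libraries of these 3 genes overlapped with each other and with those of NCL, so their order was not resolved. NOLC1 had 152 ± 5.80 (SD, n = 3), which overlapped with BOP1 and NOP16 but not with GNL3.

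The remaining 4 genes lay lower, NOP58 at 120 ± 7.27, PES1 at 109 ± 14.3, NOP56 at 108 ± 8.94 and FBL at 99.9 ± 13.3 (SD, n = 3 each). All libraries of these 4 genes fell below those of NOLC1, and neighbours among the 4 overlapped. The mean height of NPM1 in shSCR was thus the highest and that of FBL the lowest of the 10.

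Mean heights were lower with the G9a hairpins at all 10 genes, and the median difference was close to that of the 5245 regions called in all 8 libraries other than shG9a_1 replicate 1. Regions that a shG9a library no longer listed are not among these 5245, which are 36.9% of the regions reproducible in shSCR. At 9 of the 10 genes all 5 shG9a libraries other than shG9a_1 replicate 1 lay below all 3 shSCR libraries. The same was true of 56.1% of the 5245 regions, and of 72.5% of those in the strongest decile. In the shG9a libraries NPM1 had heights of 203 and 193 (shG9a_1 replicates 2 and 3) and 104, 170 and 115 (shG9a_4 replicates 1, 2 and 3). FBL had 89.3, 115 and 95.6 in shSCR, against 40.5 and 51.9 for shG9a_1 and 27.6, 65.0 and 32.0 for shG9a_4. The groups of NPM1 and of FBL did not overlap.

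NOP16 was the exception. It had 201, 240 and 154 in shSCR, against 108 and 166 for shG9a_1 and 75.4, 170 and 95.1 for shG9a_4, so that 2 shG9a libraries lay above shSCR replicate 3. GNL3 had 172, 219 and 162 in shSCR, against 149 and 139 for shG9a_1 and 87.9, 140.5 and 77.6 for shG9a_4, with groups that did not overlap but lay close. NOP58 had 127, 119 and 113 in shSCR, against 86.5 and 89.2 for shG9a_1 and 60.3, 98.5 and 59.2 for shG9a_4, also without overlap. At all 10 genes the lowest 2 of these 5 heights were those of shG9a_4 replicates 1 and 3. These libraries also had the highest relative depths, but height and relative depth use the same lowest background and are tied by construction. The median pileup of the 10 genes, before division by that background, was 67, 89.5 and 63 fragments in shSCR replicates 1, 2 and 3. It was 36.5 and 51.5 fragments for shG9a_1 replicates 2 and 3, and 50, 61 and 77.5 for shG9a_4 replicates 1, 2 and 3. The median of shG9a_4 replicate 3 thus lay between those of the shSCR libraries, and at NPM1 this library held 119 fragments against 118 to 135 in shSCR. The part of depth in the heights was not tested.

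**Figure D3:**
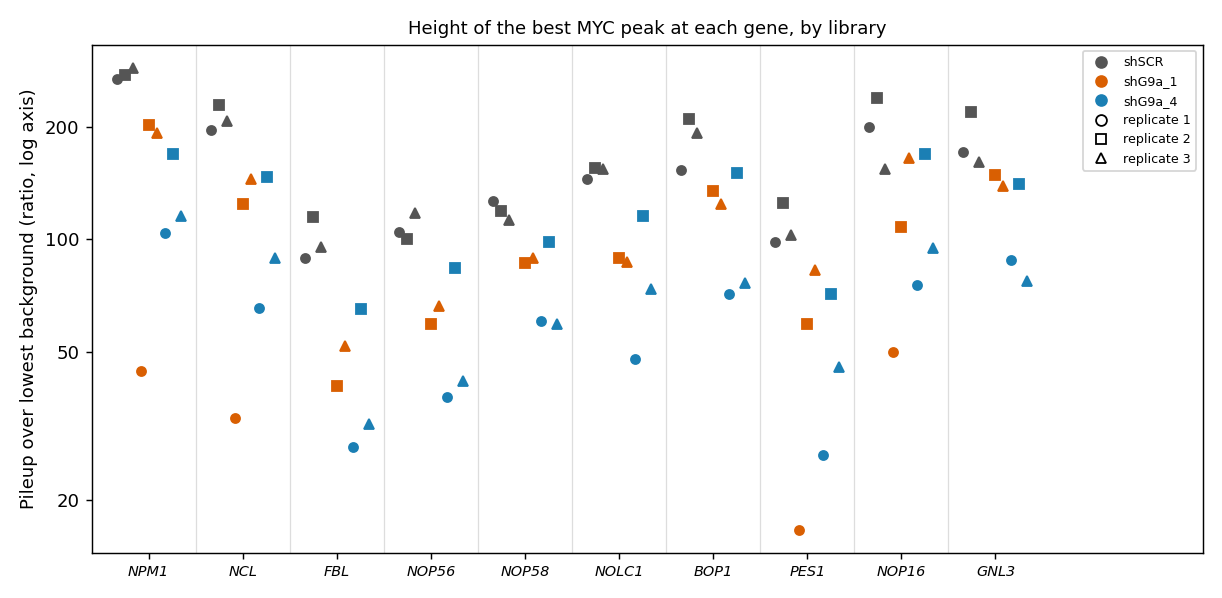
Height of the best MYC peak at each gene (recovered pileup over the lowest background of the library, log axis) in every library that listed one, with hairpins by colour and replicates by symbol. The shSCR points lie above the shG9a points at 9 genes, overlap at NOP16, and the 4 points of shG9a_1 replicate 1 (16.6 to 49.9) are the lowest at their genes.

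Differences were tested with limma on log2 height over the 5245 regions, without shG9a_1 replicate 1 and with Benjamini-Hochberg adjustment over all of them. With both hairpins weighted equally, 8 of the 10 genes were lower than in shSCR at an adjusted p under 0.05, where 76% of all regions were lower and 0.0191% higher. In the strongest decile, which holds all 10 genes, 86.2% of 1410 regions were lower. The median log2 difference of the 10 was −0.86, or 55.2% of the shSCR height, against −0.85 for all regions and −0.91 for the strongest decile. On the scale of the deposited fold the medians were smaller, −0.48 for the 10 genes and −0.58 for all regions, with 9 of 10 genes below 0 and GNL3 at 0.10. On that scale NPM1 fell most, at −0.85, followed by PES1 at −0.67, and FBL lay at −0.40 (limma adjusted p = 0.267). In height FBL fell most, by 1.24 ± 0.33 on the log2 scale (SE, limma adjusted p = 0.00322). PES1 followed with a fall in height of 0.96 (adjusted p = 0.0110), and NOP56 with 0.93 (adjusted p = 0.0129). The difference was −0.91 at NOLC1 (adjusted p = 0.0141), −0.90 at NCL (adjusted p = 0.0146), −0.81 at NPM1 (adjusted p = 0.0234), −0.74 at BOP1 (adjusted p = 0.0352) and −0.71 at NOP16 (adjusted p = 0.0432), all past the threshold. GNL3 at −0.62 (adjusted p = 0.0721) and NOP58 at −0.60 (adjusted p = 0.0790) did not pass. The SE was 0.33 for each gene, since limma pooled the spread over all regions and so treated it as known. Whole libraries shifted, however, with median heights over the 5245 regions of 22.6, 41.9 and 22.3 in shG9a_4 replicates 1, 2 and 3. The regions share such shifts and are not independent evidence on the spread, so these p-values may be too small.

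Leaving out single libraries moved the count of 8. Of the controls, removing shSCR replicate 1 left 5 genes (45.9% of regions lower), and removing shSCR replicate 2 left 0 (5.81% of regions). In the latter fit 6 genes had an unadjusted p under 0.05, as did 2489 of 5246 regions. Of the shG9a libraries, 2 genes, FBL and NOLC1, were left when shG9a_1 replicate 2 was dropped (40.4% of regions), 5 for shG9a_1 replicate 3 (43.1%) and 3 for shG9a_4 replicate 1 (49.7%). All 10 differences stayed below 0 in each of these fits. With the replicate number as a block all 10 passed (88.1% of regions), and with the deposited fold in place of height 1 gene, NPM1, passed (28.8% of regions). Over the 5 libraries of like depth (shSCR, shG9a_1 replicate 3 and shG9a_4 replicate 2) the median log2 difference of the genes was −0.51 against −0.53 for all 8265 regions. This setting leaves 1 library per hairpin.

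The log2 height differences from shSCR were below 0 at all 10 genes with either hairpin. With shG9a_4 the log2 differences were −1.36 to −0.76 with a median of −1.06, and all 10 genes were lower at a limma adjusted p under 0.05, where 85.6% of all regions were. Dropping shSCR replicate 2 left 6 of them (41.5% of regions), dropping shG9a_4 replicate 1 left FBL and NPM1, or 2 (39.7%), and dropping shG9a_4 replicate 3 left 5 (39.9%). With the deposited fold the median was −0.43 and 1 gene, NPM1, passed (11.5%). With libraries of like depth the median was −0.39, against −0.41 for all regions. That setting keeps shG9a_4 replicate 2 alone for the hairpin, and the depth by which it was picked shares its lowest background with height. With shG9a_1, which rests on replicates 2 and 3, the log2 differences were −1.12 to −0.35 with a median of −0.58. None of the 10 passed (limma adjusted p = 0.0821 to 0.453), where 0.21% of all regions were lower. At an unadjusted p under 0.05 there was 1 gene, and 1716 of 5245 regions. When shG9a_4 replicate 2, which shares in the pooled spread, was left out, 4 genes passed (53% of regions), and 2, FBL and NOLC1, passed with the replicate number as a block (28.4%). The difference between the hairpins at the 10 genes was −0.67 to −0.25 (limma adjusted p = 0.755 to 0.825), and 0% of regions passed. None of the genes had an unadjusted p under 0.05, where 260 of 5245 regions did. Without shG9a_4 replicate 2 it passed at 5 of the 10 genes (NCL, PES1, GNL3, NPM1 and BOP1) and at 34.5% of regions. The sign of this difference turned with the scaling: the median of the 10 genes was −0.40 in height and 0.02 with the deposited fold (4 of 10 below 0). Over all regions these medians were −0.35 and 0.06. Libraries of like depth leave 1 library per hairpin, shG9a_1 replicate 3 and shG9a_4 replicate 2. Their median height difference was 0.09 at the genes (2 of 10 below 0) and 0.22 over all regions. The hairpins share their shSCR libraries.

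Relative to the median of all regions in each library, no gene passed the test. After this centring the log2 differences for both hairpins together ran from −0.40 at FBL to 0.24 at NOP58, with a median of −0.02, and 5 of 10 were below 0. The adjusted p over the 10 was high (limma adjusted p = 0.518 to 0.981), where 0.0191% of all regions were lower and 0.0953% higher. Only 1 gene, FBL, had an unadjusted p under 0.05, as did 490 of 5245 regions. FBL lay at −0.40 ± 0.19 (SE, limma adjusted p = 0.518), and 4.88% of the 5245 regions lay below it. NOP58 at 0.24 ± 0.19 and GNL3 at 0.22 ± 0.18 (SE; limma adjusted p = 0.735 and 0.754) lay at the other end, with 84.3% and 82.8% of regions below them. Of the 3 box C/D genes FBL thus had the lowest and NOP58 the highest centred value of the 10, with NOP56 at −0.08; differences between genes were not tested. The PeBoW partners lay between, BOP1 at 0.10 and PES1 at −0.12. Over all regions the 5th and 95th percentiles of the centred difference were −0.39 and 0.42.

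**Figure D4:**
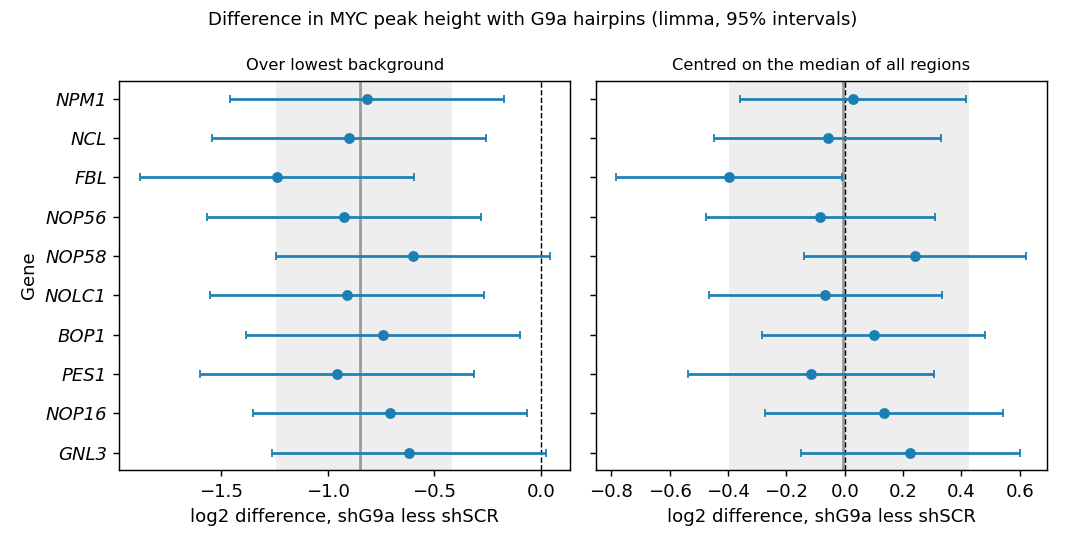
Log2 difference in MYC peak height, shG9a less shSCR, for each gene with its 95% limma interval, over the lowest background (left) and after centring each library on the median of the 5245 regions (right). The grey band runs from the 5th to the 95th percentile of all regions and the grey line their median; the 10 genes lie around that line in both panels, from −1.24 at FBL to −0.60 at NOP58 on the left.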

How the data were processed

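The series holds 18 samples, 9 MYC libraries and 9 DNA inputs; only the MYC libraries have files used here. Per the submitters' processing notes, the tools were MACS2 2.1.0, Picard 2.7.1, SAMtools 1.3 and STAR 2.5.2a, with hg19 and GRCh37 named as builds; the sources used here do not give caller settings or read filters. Per the labels' protocols, each immunoprecipitation used 10 M cells, and single 50 bp reads were planned at 25 M per sample. The deposited lists, 1 per library, give for each peak a score, a fold (a ratio of pileup to local background, 1 added to each) and the −log10 p-value and q-value at the summit, adjusted within the library; these are the authors' values.

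From the fold and the p-value a whole-number pileup was recovered within 0.001 on the −log10 p scale for at least 99.99% of peaks per list, and for 100% of 4628 simulated peaks. The simulated peaks were made with the formula that the recovery inverts, and those without a finite p-value were left out. They check the calculation only. The lowest background shared by at least 1% of peaks gave the height and, over the shortest peak, the relative depth. Peaks on chromosomes 1 to 22 and X were merged at 1 bp of overlap, and each region took the best peak by q-value in each library. limma 3.58.1 (R 4.3.3) fitted log2 height in 8 libraries. On simulated heights of 5245 regions for the comparison of shG9a with shSCR, 32% of 200 regions changed by 1 on the log2 scale were recovered, 100% of those changed by 2, and 0% of those changed by 0.5. The simulated noise was drawn separately for each region, without shifts of whole libraries. In the data 76% of regions were lower, so these rates do not describe the fit of the data.

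The genes, window, tests and left-out library were chosen with earlier results of these data known. All 10 genes are named; neighbours were taken by name from RefSeq (GRCh38.p14) after the tables were seen. A list of 71 other nucleolar genes was not used, because the reference table is of another build than the peaks. The strand of NOP58, NOLC1 and BOP1 is from general knowledge. Alternatives were other windows, thresholds, scalings, the replicate number as a block and each library left out in turn, with libraries of like depth and repeats of the centred fit added after the data were seen. Figures were drawn with matplotlib 3.10.9 under Python 3.11.15.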

Additional observations from a re-analysis of the deposited data

How the results depend on the processing

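All 10 genes stayed called in all 3 shSCR libraries and in all but at most 1 shG9a library with windows of 1 kb and 5 kb, a −log10 q of at least 5, the summit required in the window, lists of equal length (11168 peaks, 8 libraries) and any 1 library left out. At a −log10 q of at least 5 shG9a_1 replicate 1 called 2 of them. The share of all regions it called at that limit was not counted. Of the 10 genes, 8 were lower with both hairpins (3985 of 5245 regions). The number was 0 after centring or quantile normalisation (1 region in each) and 1 with the deposited fold (1509 regions). It was 0 of the 4 genes fitted with all 9 libraries (0 of 109 regions). With shG9a_4 the number (10, beside 4488 regions) was 0, 0, 1 and 0 in the same settings, where 1, 1, 605 and 0 regions were lower. Leaving out 1 library gave between 0 and 10 genes for both hairpins together (305 to 5195 regions). The range was 0 to 4 with shG9a_1 alone (0 to 2832 regions) and 2 to 10 with shG9a_4 alone (2177 to 5300 regions). It was 0 to 5 for the hairpins set against each other (0 to 1842 regions). With the replicate block 10 genes passed for both hairpins (4620 of 5245 regions lower), 2 for shG9a_1 (FBL and NOLC1, 1491 regions) and 10 for shG9a_4 (4804 regions). Libraries of like number had correlations over regions of −0.0226 to 0.150 (median 0.0547) in their departures from the group mean. Other libraries had −0.144 to 0.0770 (median −0.0381). Such correlations do not register a shift of a whole library, and the departures of shG9a_1 replicates 2 and 3 mirror each other. Whether libraries of like number are paired was thus not settled. Some signs turned for both hairpins together. After centring NPM1 was at 0.0285, NOP58 at 0.241, GNL3 at 0.225, BOP1 at 0.100 and NOP16 at 0.136. After quantile normalisation NOP58 was at 0.218, GNL3 at 0.0948, BOP1 at 0.00667 and NOP16 at 0.0486, and with the deposited fold GNL3 was at 0.0990. Centring and quantile normalisation remove the fall common to all regions by construction; the cause of the other changes was not tested. The centred fit for both hairpins called 0 of the 10 genes with the replicate block and without any 1 library. At most 3 regions were lower and 14 higher in these fits. The best peak of each gene holds 15 to 135 fragments at its summit outside shG9a_1 replicate 1, which limits each height.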
